A study of Homo sapiens with 6 samples.

Results

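miR-221 and miR-222 are paralogous microRNAs whose genes lie side by side on the X chromosome and whose guide strands carry the same seed. The members were every arm of these miRNAs listed in the deposited count tables, 4 of 2575 mature miRNA entries: miR-221-3p, miR-222-3p, miR-221-5p and miR-222-5p. They were counted in exosomes, small vesicles released by cells, from HCT116, a human colorectal cancer line at passage 16 to 19. The libraries titled ETBF (n = 3) came from cells kept together for 6 h with ETBF (enterotoxigenic Bacteroides fragilis, a toxin-producing gut anaerobe) at a multiplicity of infection of 500, and the libraries titled untreated (n = 3) from cells given the bacterial medium without the bacterium. No genetic change or further agent is given for either group, and both come from the same line. The labels do not say whether replicates are separate cultures. The p-values therefore weigh group differences only against the variation between these libraries, which can be technical. The sample titles and the deposited file names give opposite groups in 6 of 6 libraries. The groups follow the titles, and every direction turns round if the file names are right.

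A microRNA guides an Argonaute protein to messenger RNAs that pair with its seed, bases 2 to 8, and lowers their translation and stability. miR-221 and miR-222 are cut from 1 shared primary transcript and are best known for repressing CDKN1B, which encodes the cell-cycle inhibitor p27, and KIT, which encodes the receptor of stem cell factor. They are abundant in many carcinomas and in endothelial and vascular smooth muscle cells, and NF-kappaB and AP-1 are known inducers of their transcription. In each hairpin the 3p arm is the usual guide, and the 5p arm is its partner strand.

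The mature sequences are shown because they set which reads can be told apart and which targets the pair shares. They are given 5′ to 3′ from RefSeq on GRCh38.p14 with the seed in capitals, and the table used held 3 of the 4 members, all but miR-221-5p.
hsa-miR-221-3p (chrX:45746180-45746202, minus strand): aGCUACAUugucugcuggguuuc
hsa-miR-222-3p (chrX:45747036-45747056, minus strand): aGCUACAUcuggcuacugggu
hsa-miR-222-5p (chrX:45747073-45747094, minus strand): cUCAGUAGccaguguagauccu

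Bases 1 to 8 of miR-221-3p and miR-222-3p were identical, whereas only 3 of the 13 positions compared after base 8 matched when the sequences were laid side by side from the 5′ end. Of 2370 human mature miRNA names in the table, these 2 alone had this seed. The table held a sequence for 635 of the 717 entries with a count, so other counted entries with the seed were not looked for among the rest. Each of the pair had 1 locus. The seed of miR-222-5p was found in no other name of the table.

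The hairpins are shown to place the arms, with the mature strands of the table in capitals.
MIR221 (chrX:45746157-45746266, minus strand): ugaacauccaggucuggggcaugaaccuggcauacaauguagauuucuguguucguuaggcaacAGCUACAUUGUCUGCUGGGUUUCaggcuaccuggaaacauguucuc
MIR222 (chrX:45747015-45747124, minus strand): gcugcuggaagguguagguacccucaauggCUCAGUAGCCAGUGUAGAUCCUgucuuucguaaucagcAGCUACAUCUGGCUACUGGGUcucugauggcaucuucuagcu

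The hairpins are separated by 748 bases, and in GENCODE release 29 both lie within the long non-coding RNA gene MIR222HG, in an intron of 1 of its 2 annotated transcripts and outside the span of the other. The submitters' build was GRCh37.p5, and the deposited files carry no coordinates.

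The seed pairs with ATGTAGC, or ATGTAGCA where an A stands opposite base 1. In the GENCODE release 29 transcripts with the longest 3′ UTR, CDKN1B (chromosome 12) and KIT (chromosome 4) each held 2 matches on the transcribed strand, all 4 of them to the longer form. They are shown, with the match in capitals, because these genes are the textbook targets of the pair.
CDKN1B site 1, bases 201 to 208 of the 3′ UTR: tctaaaagcgttggATGTAGCA
CDKN1B site 2, bases 274 to 281: agtttttaccttttATGTAGCA
KIT site 1, bases 1030 to 1037: tagtttggattcttATGTAGCA
KIT site 2, bases 1959 to 1966: ttgtaaatattgaaATGTAGCA

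The longer form stood in 1.99% of the 1209 3′ UTRs within 10% of the length of that of CDKN1B, and in 3.57% of the 1175 within 10% of that of KIT. For the shorter form, which contains these matches, the shares were 6.29% and 9.79%. These are matches of letters, and no target transcript was measured in these libraries.

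Libraries held 200207 to 417321 counts, and 717 of the 2575 entries had a count in any of them. miR-148a-3p took 33.1%, 42.6% and 51.1% of the counts of titled ETBF replicates 1, 2 and 3, and 26.3%, 38.2% and 33.5% of those of titled untreated replicates 1, 2 and 3. Levels are CPM, counts relative to a library size scaled by the trimmed mean of M-values (TMM), which lowers the weight of such entries, and 3 counts correspond to 8.29 to 14.6 CPM. All 8 colon epithelial miRNAs on the marker list had counts, with summed levels of 28850 to 32478 CPM in titled ETBF and 33125 to 34642 CPM in titled untreated libraries. The endothelial miR-126 arms summed to 831.8 to 923.0 CPM in titled ETBF and 867.3 to 1041 CPM in titled untreated libraries (2 of 2 present). The 4 fibroblast and smooth muscle markers, all present, summed to 8278 to 9460 CPM in titled ETBF and 9553 to 11272 CPM in titled untreated libraries. The 3 striated muscle markers, all present, summed to 15343 to 18723 CPM in titled ETBF and 19461 to 20876 CPM in titled untreated libraries, and liver miR-122-5p stood at 4804 to 5062 CPM and 5420 to 6556 CPM in the same order. The 4 blood-cell markers, all present, summed to 360.9 to 473.9 CPM in titled ETBF and 387.5 to 464.0 CPM in titled untreated libraries. Of the 22 listed markers 1 was called by edgeR, the epithelial and neuroendocrine miR-375, which was lower in titled ETBF libraries (log2 fold change -0.61, SE 0.17, adjusted p = 0.0432). DESeq2 called 2 and limma-voom 0 of the 8 epithelial markers. Over all 195 tested entries edgeR called 14.4%, DESeq2 14.9% and limma-voom 12.8%. Of those 8 markers 6 had a negative log2 fold change. Their median was -0.11, beside -0.03 over all tested entries, and with 8 markers no more is read from the counts. The part of these markers in the levels of miR-221 and miR-222 was not tested.

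The guide strands were present at moderate and steady levels, and neither differed between the groups beyond the test's threshold. miR-221-3p had 308, 230 and 317 counts in titled ETBF replicates 1, 2 and 3, and 169, 351 and 278 counts in titled untreated replicates 1, 2 and 3. On the CPM scale it stood at 1037, 1038 and 981.8 in titled ETBF replicates and at 822.2, 969.5 and 890.3 in titled untreated replicates. The lowest titled ETBF library lay just above the highest titled untreated library, so the groups did not overlap, as in 39% of tested entries. The means were 1019 ± 32.1 CPM in titled ETBF and 894.0 ± 73.7 CPM in titled untreated libraries (SD, n = 3 each). The log2 fold change was 0.18 (SE 0.09; edgeR quasi-likelihood test, adjusted p = 0.210), which is 1.13-fold with a 95% interval of 0.979 to 1.32.

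miR-222-3p had 187, 145 and 194 counts in titled ETBF replicates 1, 2 and 3, and 118, 225 and 176 counts in titled untreated replicates 1, 2 and 3. These were 629.8, 654.1 and 600.9 CPM in titled ETBF replicates and 574.1, 621.4 and 563.6 CPM in the titled untreated libraries. Titled untreated replicate 2 lay inside the range of the titled ETBF libraries, and the groups overlapped. The means were 628.3 ± 26.7 CPM in titled ETBF and 586.4 ± 30.8 CPM in titled untreated libraries (SD, n = 3 each). The log2 fold change was 0.09 (SE 0.10; edgeR, adjusted p = 0.534), or 1.07-fold with a 95% interval of 0.915 to 1.25. Both intervals, from the TMM-scaled fit, include no change and leave out a 1.5-fold change either way. With library size alone in place of TMM the SEs were larger, 0.22 for miR-221-3p and 0.23 for miR-222-3p. The bound on a 1.5-fold change is given for the TMM-scaled fit only. More vesicles carrying a miRNA and more copies of it per vesicle cannot be told apart in such bulk libraries.

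**Figure D1:**
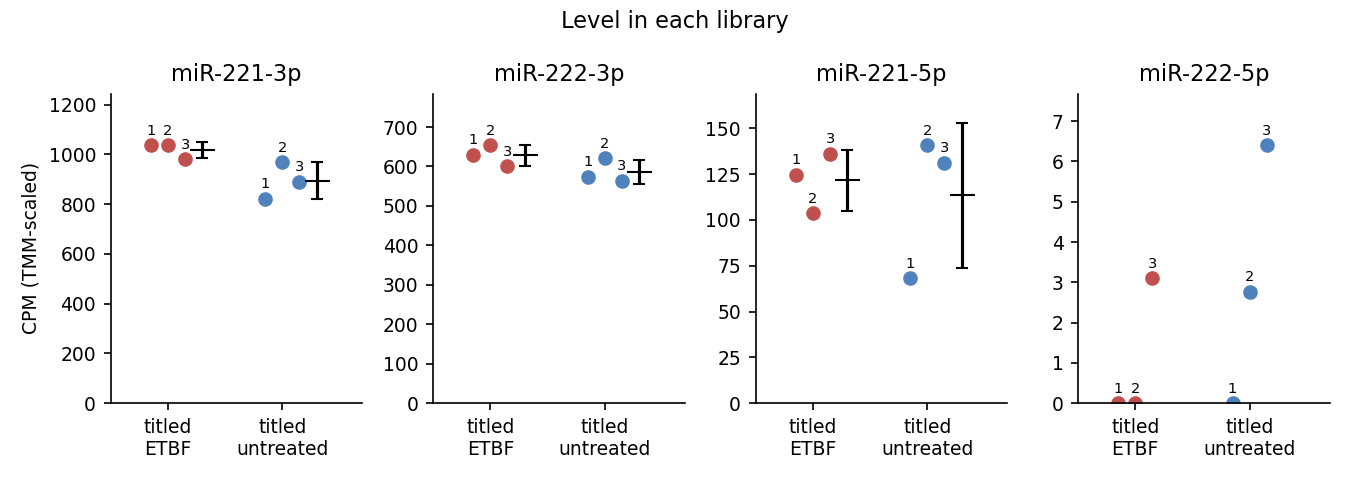
Level (CPM, TMM-scaled, each axis from 0) of each arm in the 3 titled ETBF and the 3 titled untreated libraries, numbered by replicate, with black bars for mean ± SD except for miR-222-5p, whose points stand for 0 to 2 counts. miR-221-3p and miR-222-3p spread little in either group, and titled untreated replicate 1 is the lowest library for miR-221-3p and miR-221-5p.

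miR-221-5p, the partner strand, was the only 5p arm with more than a few counts. It had 37, 23 and 44 counts in titled ETBF replicates 1, 2 and 3, and 14, 51 and 41 in titled untreated replicates 1, 2 and 3. Its levels were 124.6, 103.8 and 136.3 CPM in titled ETBF replicates and 68.1, 140.9 and 131.3 CPM in the titled untreated libraries. The titled untreated libraries held both the lowest and the highest value, so the titled ETBF range lay inside theirs. The log2 fold change was 0.06 (SE 0.26; edgeR, adjusted p = 0.870), or 1.04-fold with a 95% interval of 0.688 to 1.57. Without titled untreated replicate 1 it was -0.13, and without titled ETBF replicate 3 it was -0.045, and neither passed.

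miR-222-5p had 0, 0 and 1 counts in titled ETBF replicates 1, 2 and 3, and 0, 1 and 2 in titled untreated replicates 1, 2 and 3. It did not pass the low-count filter, and with every library under 3 counts no fold change is given.

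Of the 4 members, 3 passed the filter, and 0 of these 3 differed between the groups at an adjusted p under 0.05 by edgeR, by DESeq2 or by limma-voom, or at an unadjusted p under 0.05 by any of these tools. Over all 195 tested entries 14.4% were called, 10.8% higher and 3.59% lower in the titled ETBF libraries, and 33.8% had an unadjusted p under 0.05 (edgeR; 30.8% by DESeq2 and 32.3% by limma-voom). The split of 21 higher and 7 lower calls was 36 and 6 with upper-quartile scaling, and 38 and 21 without titled ETBF replicate 1. miR-221-3p ranked 77 and miR-222-3p 132 of 195 by p-value. The absolute log2 fold change of miR-221-3p exceeded that of 33.8% of tested entries, and that of miR-222-3p exceeded 14.4%.

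**Figure D2:**
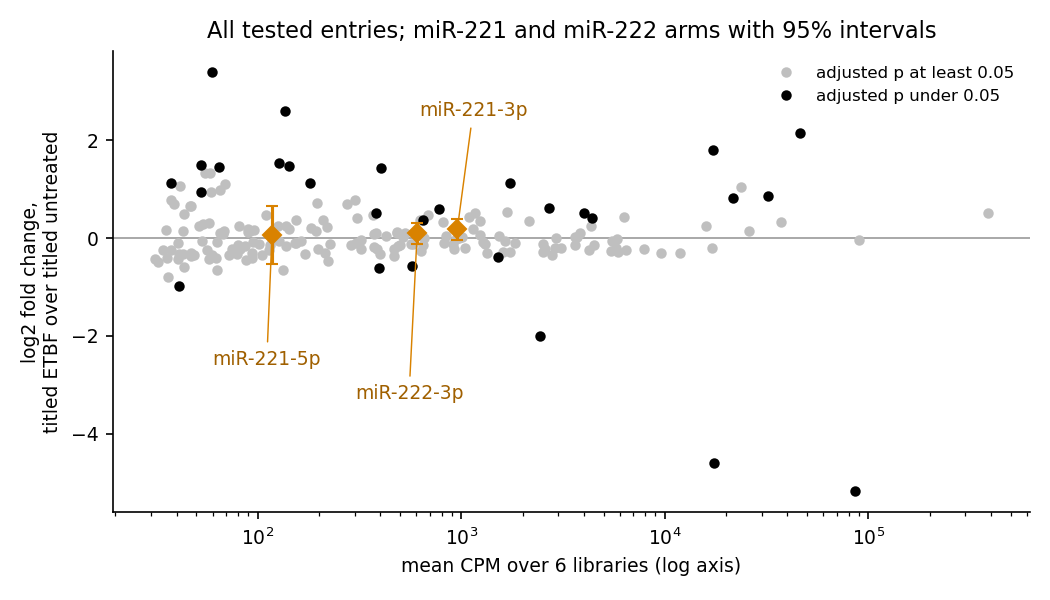
Log2 fold change of titled ETBF over titled untreated libraries against mean CPM over 6 libraries (log axis) for the 195 tested entries, black where the adjusted p was under 0.05. The diamonds are miR-221-3p (0.18), miR-222-3p (0.09) and miR-221-5p (0.06) with 95% intervals, each crossing 0.

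Per library, the pair held a small and variable share of raw counts. miR-221-3p and miR-222-3p together took 0.198%, 0.169% and 0.122% of the counts of titled ETBF replicates 1, 2 and 3, and 0.143%, 0.156% and 0.155% of those of titled untreated replicates 1, 2 and 3. Among the titled ETBF libraries the share was lowest where miR-148a-3p was highest, in replicate 3, and highest where it was lowest, in replicate 1. The titled untreated libraries ran the other way. There the share was lowest where miR-148a-3p was lowest (26.3%, replicate 1), and highest where it was highest (38.2%, replicate 2). Another large entry, miR-7641, averaged 4599 ± 395.0 CPM in titled ETBF and 167001 ± 61712 CPM in titled untreated libraries (SD, n = 3 each). Its part in the raw shares was not tested. The TMM factors of titled ETBF replicates 3 and 1 were 0.776 and 1.19. Scaled by TMM, the summed level of the pair was 1667, 1692 and 1583 CPM in titled ETBF replicates and 1396, 1591 and 1454 CPM in the titled untreated libraries. The scaled groups overlapped by titled ETBF replicate 3 and titled untreated replicate 2. The log2 difference of 0.16 had p = 0.2 (exact permutation test over libraries, two-sided, n = 3 per group, where no p can fall below 0.1), and an adjusted p of 0.4 over the 4 such tests made. With library size alone in place of TMM the log2 difference was 0.080 (exact permutation p = 0.7).

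The ratio of the paralogues needs no scaling between libraries, and it was close to constant. There were 1.65, 1.59 and 1.63 reads of miR-221-3p for each read of miR-222-3p in titled ETBF replicates 1, 2 and 3, and 1.43, 1.56 and 1.58 in titled untreated replicates 1, 2 and 3. miR-221-3p was thus the more abundant in 6 of 6 libraries. Counts were compared directly, taking each read to span a whole mature miRNA, which could not be checked because the deposited counts carry no read lengths. Divided by mature length (23 and 21 bases), the ratio was 1.50, 1.45 and 1.49 in the titled ETBF libraries and 1.31, 1.42 and 1.44 in the titled untreated libraries. The mean ratio of reads was 1.62 ± 0.0320 in titled ETBF and 1.52 ± 0.0800 in titled untreated libraries (SD, n = 3 each). The lowest titled ETBF ratio, 1.586, was narrowly above the highest titled untreated one, 1.580. The difference of 0.092 on the log2 scale had p = 0.1, the smallest possible (exact permutation test, two-sided), and an adjusted p of 0.4. Without titled untreated replicate 1 the difference was 0.047 (exact permutation p = 0.2).

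As a share of the reads of the pair, miR-221-3p made up 62.2%, 61.3% and 62.0% in titled ETBF replicates 1, 2 and 3, and 58.9%, 60.9% and 61.2% in titled untreated replicates 1, 2 and 3. The exact 95% binomial intervals all overlapped, from 57.8% to 66.5% in titled ETBF replicate 1 to 53.0% to 64.6% in titled untreated replicate 1. These intervals cover counting error only. Over all 6 libraries the share was 61.3%, or 1653 of 2698 reads.

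The arms of miR-221 were unequal in each library. The 5p arm made up 10.7%, 9.09% and 12.2% of miR-221 reads in titled ETBF replicates 1, 2 and 3, and 7.65%, 12.7% and 12.9% in titled untreated replicates 1, 2 and 3. Titled untreated replicate 1 had the lowest share, with an exact 95% interval of 4.25% to 12.5%, which overlapped that of every other library. The difference of -0.395 percentage points had p = 0.8 (exact permutation test, two-sided, adjusted p = 0.8), and it turned positive without titled untreated replicate 2, titled untreated replicate 3 or titled ETBF replicate 2. miR-221-3p had between 6.78 and 12.1 reads for each read of miR-221-5p.

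The 5p arm of miR-222 was far rarer. It made up 4 of 1049 miR-222 reads over the 6 libraries, 0.381% with an exact 95% interval of 0.104% to 0.973%, against 210 of 1863 for miR-221, 11.3% with an interval of 9.87% to 12.8%. In each library the 5p share was lower for miR-222 than for miR-221, and the exact intervals of the 2 shares did not overlap in any library. In the 3 libraries with 0 counts of miR-222-5p, the floor of 3 counts stood at 1.60% and 2.07% in titled ETBF replicates 1 and 2, and at 2.54% in titled untreated replicate 1. The two-sided exact 95% intervals of these shares of 0 reached somewhat higher, to 1.95% and 2.51% in titled ETBF replicates 1 and 2, and to 3.08% in titled untreated replicate 1. Between the groups the difference in this share was -0.351 percentage points (exact permutation p = 0.7, adjusted p = 0.8), at a depth that could not resolve it.

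**Figure D3:**
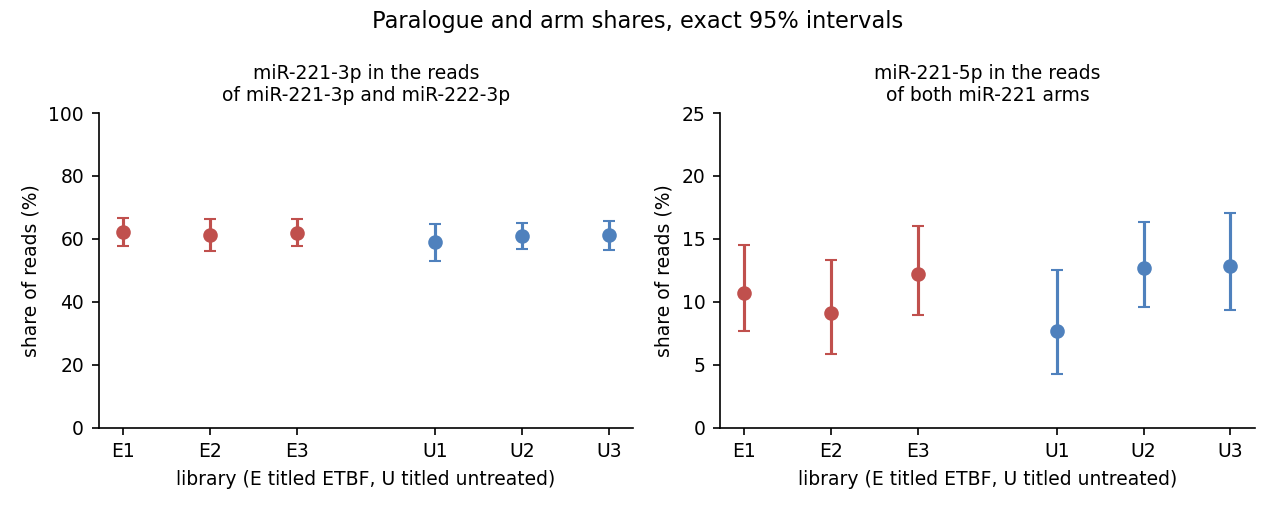
Share of reads (%) in each library, with exact 95% binomial intervals, for miR-221-3p within the pair of guide strands (left, axis 0 to 100) and for miR-221-5p within both arms of miR-221 (right, axis 0 to 25). The left shares run from 58.9% to 62.2% and the right ones from 7.65% to 12.9%, with overlapping intervals.

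In order of mean level over the 6 libraries, miR-221-3p ranked 62 and miR-222-3p 76 of 2575 entries, miR-221-5p 129 and miR-222-5p 477. The neighbours of miR-221-3p in level were miR-429, a miR-200 family member of epithelial cells, and miR-20a-5p, of the miR-17-92 cluster, above it, and miR-27a-3p and miR-125b-5p below it. They averaged 1011 ± 33.2, 978.8 ± 29.0, 945.4 ± 91.3 and 919.1 ± 108.3 CPM, against 956.4 ± 85.2 CPM for miR-221-3p (SD over 6 libraries), and none of them stood apart from it by more than 1 SD of miR-221-3p. Those of miR-222-3p were miR-381-3p and miR-769-5p above it and miR-22-3p and miR-127-3p below it, at 632.0 ± 73.9, 627.2 ± 226.5, 581.7 ± 75.2 and 575.0 ± 135.9 CPM, against 607.3 ± 34.5 CPM. Of these 4, miR-127-3p, from the imprinted 14q32 cluster, was called between the groups (log2 fold change -0.58, SE 0.12, edgeR adjusted p = 0.0113). Next to miR-221-5p at 117.5 ± 27.5 CPM stood miR-95-3p and miR-195-5p above it and miR-135b-5p and miR-136-3p below it. miR-95-3p, at 127.1 ± 76.7 CPM, was the one of these 4 with a call between the groups (log2 fold change 1.54, SE 0.33, edgeR adjusted p = 0.0157).

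The guide strands varied little over the 6 libraries, and they stood close to each other in pattern. Likeness was the root mean square difference of log2 CPM after each entry's own mean was subtracted. miR-222-3p was the nearest of 194 other tested entries to miR-221-3p, at 0.066, followed by miR-92a-3p at 0.081 and let-7a-5p at 0.092, where the median entry was at 0.272. The nearest to miR-222-3p were miR-92a-3p at 0.051, miR-20a-5p at 0.053 and miR-221-3p at 0.066, with a median of 0.258. Small distances go with low spread: an entry with no variation at all would lie at 0.120 from miR-221-3p, with 11 of the 194 entries nearer than that, and at 0.074 from miR-222-3p, with 3 nearer. miR-92a-3p averaged 3953 ± 240.4 CPM in titled ETBF and 3689 ± 31.0 CPM in titled untreated libraries, and let-7a-5p 17317 ± 1015 and 14602 ± 736.3 CPM in the same order (SD, n = 3 each). miR-20a-5p averaged 982.9 ± 39.8 CPM in titled ETBF and 974.7 ± 21.8 CPM in titled untreated libraries. miR-221-5p, from the same hairpin as miR-221-3p, ranked 106 of 194, at 0.284. Its counts of 14 to 51 per library carry more counting error than those of the guide strands, and the part of this in its rank was not tested.

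**Figure D4:**
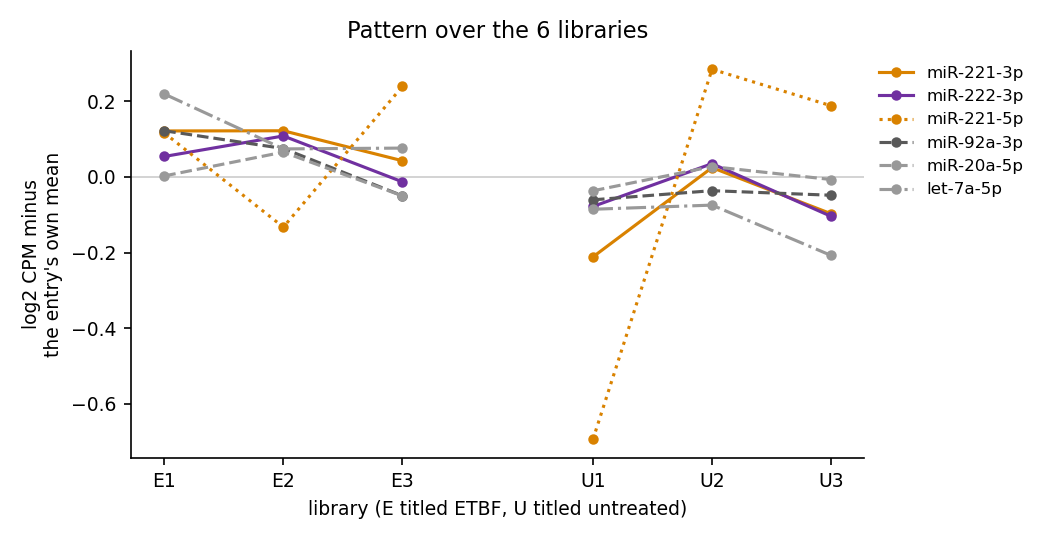
Log2 CPM minus each entry's own mean in the 3 titled ETBF (E) and 3 titled untreated (U) libraries; lines only join the values of 1 entry within a group. miR-221-3p and miR-222-3p stay within 0.22 of their means, while miR-221-5p drops by 0.69 below its own in titled untreated replicate 1.

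Other miRNAs reported to repress the targets of the pair were compared with it. Of 5 listed for CDKN1B, namely miR-24-3p, miR-148a-3p, miR-152-3p, miR-181a-5p and miR-196a-5p, 5 were tested and 0 passed over all entries by edgeR, DESeq2 or limma-voom, while 3, 2 and 2 had an unadjusted p under 0.05 by these tools. Over all tested entries 14.4% were called by edgeR and 33.8% had an unadjusted p under 0.05, and with 5 members no more is read from the count. The median log2 fold change of the list was -0.12, beside -0.03 over all tested entries, with 2 positive and 3 negative. miR-181a-5p averaged 1569 ± 75.1 CPM in titled ETBF and 1920 ± 139.7 CPM in titled untreated libraries (log2 fold change -0.29, SE 0.09, adjusted p = 0.0601). miR-196a-5p averaged 97.1 ± 45.9 CPM in titled ETBF and 41.4 ± 20.4 CPM in titled untreated libraries (1.11, SE 0.44, adjusted p = 0.108). With no low-count filter edgeR called 51 of 717 entries. miR-196a-5p and miR-148a-3p were among them, at edgeR adjusted p of 0.00569 and 0.0185 and log2 fold changes of 1.10 and 0.50. Both had met the main filter too, with similar log2 fold changes and larger SEs (0.44 and 0.31, against 0.30 and 0.15 with no filter). For both, the CPM of the groups overlapped.

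Of 5 miRNAs listed for KIT, miR-34a-5p, a p53 target, and miR-494-3p were tested, and 0 passed by edgeR, DESeq2 or limma-voom, with 0 at an unadjusted p under 0.05 by each, beside 14.4% called and 33.8% at an unadjusted p under 0.05 over all tested entries by edgeR. The log2 fold change of miR-34a-5p was -0.30 (SE 0.16) and that of miR-494-3p was -0.43 (SE 0.30), with a median of -0.37. miR-137 was listed at 0 in 6 of 6 libraries, and miR-193a-3p had 1 count in all. miR-193b-3p had 12, 6 and 12 counts in titled ETBF replicates 1, 2 and 3, and 3, 0 and 0 in titled untreated replicates 1, 2 and 3. It did not pass the filter. With no filter, where edgeR called 51 of 717 entries, its log2 fold change was 3.18 (SE 0.72, edgeR adjusted p = 0.00035). Its summed counts were 30 in the titled ETBF and 3 in the titled untreated libraries. Relative to the TMM-scaled library sizes their ratio was 10.5, with an exact 95% interval of 3.25 to 53.5 that covers counting error only.

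Among 9 other miRNAs of band Xp11, from the cluster in the CLCN5 gene, 4 were tested and 0 passed by edgeR, DESeq2 or limma-voom, with 1 at an unadjusted p under 0.05 by each, a share near the 33.8% of all tested entries by edgeR, of which 14.4% were called. That was miR-532-5p, the most abundant of them, at 1983 ± 495.6 CPM in titled ETBF and 1376 ± 161.7 CPM in titled untreated libraries (SD, n = 3 each; log2 fold change 0.52, SE 0.18, edgeR adjusted p = 0.0772). With no filter, where edgeR called 51 of 717 entries, it passed (0.51, SE 0.12, adjusted p = 0.000545), the only one of the 9 to do so. It had met the main filter too, with a similar log2 fold change and a larger SE. miR-500a-3p and miR-501-3p had 0.11 (SE 0.29) and 0.16 (SE 0.36), and miR-660-5p had -0.22 (SE 0.24), none past the threshold. The median of the 4 was 0.13.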

How the data were processed

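Small RNA libraries were made from 100 ng of total RNA of exosomes collected by centrifugation of conditioned medium, with an Illumina TruSeq RNA kit, per the labels' protocols. The deposited values are raw counts, as whole numbers, 1 per mature miRNA. The tools were featureCounts, Trimmomatic and FastQC, on build GRCh37.p5, per the submitters' processing notes. Not given in the sources used here are the aligner, the miRNA annotation, the use of strand and the handling of reads with several positions.

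Groups follow the sample titles. edgeR's filterByExpr (minimum count 10) kept 195 of 2575 entries, with at least 99.6% of each library's counts. Counts were TMM-scaled (factors 0.776 to 1.19) and tested over the whole table with the two-sided quasi-likelihood test of edgeR, and adjusted by Benjamini-Hochberg (threshold 0.05). The standard error (SE) is the size of the log2 fold change divided by the root of F, and 95% intervals use the t distribution. Ratios, arm shares and sums, 4 tests, were compared by exact permutation of libraries. Pairs of replicates differed by far more than sampling noise (chi-square over degrees of freedom 12.9 to 139.9). The floor is 3 counts. It and the binomial intervals reflect counting error alone.

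The text names every arm, the 3 entries most alike to each guide strand, the 2 neighbours in level on each side and fixed lists. miR-133a was read as its 3p arm. miR-193b-3p, miR-148a-3p, miR-196a-5p and miR-532-5p are on those lists and were picked out after their values were seen. The members and lists were chosen with earlier results of these data known. Scripts were tested on simulated data. Alternatives were other scalings, filters and tools, the replicate number as a block, miR-148a-3p and miR-7641 left out, and single libraries left out. The versions were DESeq2 1.42.0, limma 3.58.1 and edgeR 4.0.16, under R 4.3.3.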

Additional observations from a re-analysis of the deposited data

How the results depend on the processing

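The log2 fold changes of miR-221-3p (0.12 to 0.25) and miR-222-3p (0.011 to 0.16) stayed positive in the 15 alternatives tried. They passed the threshold in none, with adjusted p of at least 0.130 and 0.404. That of miR-221-5p was -0.015 with library size alone, and ran from -0.13 to 0.23 when single libraries were left out. It passed in none of the 15. miR-222-5p was not tested in the main setting and has no fold change. The difference in the 5p share of miR-221 ran from -2.10 to 0.50 percentage points over single libraries left out. The ratio of the guide strands kept a positive difference (0.047 to 0.12 on the log2 scale), as did the summed level of the pair (0.080 to 0.22). The 28 calls over all entries became 51 with no filter, 42 with upper-quartile scaling and 17 to 59 when single libraries were left out: 59 without titled ETBF replicate 1, and 17 without titled ETBF replicate 3 or titled untreated replicate 3. The cause was not tested. Shallow depth limits miR-222-5p most.

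With the replicate number as a block (the replicate block) there were 38 calls, 26 of them shared with the 28, and log2 fold changes of 0.19, 0.10 and 0.093 for miR-221-3p, miR-222-3p and miR-221-5p, none past the threshold. Libraries with the same number had correlations of deviations of 0.18, 0.10 and 0.052 over 195 entries. Between libraries with different numbers the correlations ran from -0.16 to 0.073. Every library but titled ETBF replicate 3 correlated best with its own number. That replicate had 0.073 with titled untreated replicate 2 and 0.052 with its own number. By the labels such libraries share only a number.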
